A study of Mus musculus with 2 samples.

Results

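Retinoic acid is made from vitamin A inside some cells of the embryo, diffuses to their neighbours and acts on them through nuclear receptors. Aldehyde dehydrogenases of the Aldh1a family carry out the last, irreversible step of its synthesis, Crabp1 and Crabp2 bind it in the cytoplasm, the receptors Rara, Rarb and Rarg turn it into changes in transcription, and the cytochrome P450 enzyme Cyp26b1 oxidises it for removal. In the trunk of the mid-gestation mouse embryo, mesoderm is known as the main source, and retinoic acid signalling has been linked to blood stem cell formation in the aorta-gonads-mesonephros region (AGM) and to the timing of germ cell meiosis in the gonad. The 9 genes described here, Aldh1a1, Aldh1a2, Aldh1a3, Crabp1, Crabp2, Rara, Rarb, Rarg and Cyp26b1, were chosen by name for these roles, out of 31053 genes in the deposited tables, and all 9 had UMIs in both libraries.

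The data are 10x Chromium 3′ single-cell RNA sequencing of dissociated whole AGM of embryonic day 11 mouse embryos, with 1 library of PDGFRB +/+ (WT) and 1 library of PDGFRB -/- (KO) embryos on a C57BL/6J background. The KO allele removes the receptor PDGFRβ in all cells from the start of development. The study describes these mice as lacking pericytes and dying around birth. For the KO AGM, however, it proposes that some pericytes or smooth muscle cells of vessels are still present. The number of embryos behind each library is not given in the sources used here. Barcodes with at least 2000 UMIs and less than 10% mitochondrial UMIs were taken as cells, 8253 in WT with a median of 13321 UMIs and 8165 in KO with a median of 12391 UMIs, and 20 barcodes occurred in both libraries. Pdgfrb itself had 43.1 counts per 1000000 UMIs (CPM) in WT and 7.09 CPM in KO. Xist, the RNA of the inactive X chromosome, had 793 CPM in WT and 0.415 CPM in KO, while 4 Y-linked genes together had 0.0266 CPM in WT and 163 CPM in KO, so that genotype, sex of the embryos, dissection and library cannot be told apart in any difference given here. With 1 library per genotype no test was possible, and all intervals are 95% intervals of counting error alone.

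Cells were put into classes by the number of marker genes with a UMI, and a class is named after its markers with "-like" or after the gene that gated it. The 13 classes described here held between 57 and 2562 cells per library. They were macrophage-like, erythroid-like, endothelial-like, Schwann precursor-like, sympathoblast-like, muscle progenitor-like (led by contractile genes such as Mylpf and Acta1), coelomic epithelium-like, sclerotome-like and mural-like cells and 4 groups of mesenchyme, gated by Barx1, Wnt2, Tcf21 or none of these (other mesenchyme). Mural-like cells were led by the contractile genes Actg2 and Tagln in both libraries, and Rgs5 was among their leading genes only in KO. Smooth muscle of vessels and of other organs was not told apart, so this class is not taken as vascular alone. A further class, gated by Epcam and other epithelial genes, held 21 WT and 26 KO cells, led by germ cell genes such as Dppa5a in WT and by Krt14 in KO. It was left out of comparisons and of the order of classes, for which at least 50 cells were needed. The 4 mesenchymal groups pooled held 3784 WT and 3809 KO cells. Some classes did not hold like cells in both libraries. Barx1-gated mesenchyme numbered 397 cells in WT but 57 in KO, where it was led by Tbx5 and Pitx1, so it was left out of comparisons between the libraries. Its KO cells stay in pooled mesenchyme, in the order of classes and in the figures of levels and receptor shares. Wnt2-gated mesenchyme was led by Lum and Dcn in WT and by Gata5 and Pitx1 in KO, and other mesenchyme by Ebf2 and Zic4 in WT and by Msx1 and Irx5 in KO. Sclerotome-like cells held 324 Barx1 UMIs in WT and 11 in KO, and 14.7 and 30.0 CPM of Acan, but 321 and 329 CPM of Sox9. Tcf21-gated mesenchyme had 58.7 CPM of Msx1 in WT and 19.9 CPM in KO, but 35.2 and 40.8 CPM of Hoxa13. The part of such differences in the ratios of these classes was not tested. A second assignment put each cell in the class with the most similar summed profile. It gave the same class to 61.5% of the 6727 WT cells and 69.4% of the 6696 KO cells that the markers had put in a class. Erythroid-like cells serve as background. Their UMIs of these genes can include free RNA in the droplets and doublets, which were not removed, and the part of each was not tested.

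The members differed both in their levels and in how many classes exceeded erythroid-like cells. Of 12 classes in WT, 2 did so for Aldh1a1, 6 for Aldh1a3, 8 for Cyp26b1, 9 for Rarg and 11 for Rarb. In KO these counts were 3, 4, 5, 7 and 10. Erythroid-like cells numbered 709 in WT and 208 in KO, and their upper limit for Cyp26b1 was 0.796 CPM in WT and 3.41 CPM in KO. The background thus differed between the libraries, and a lower count is not read as expression in fewer classes. In WT, Aldh1a2, Crabp1 and Crabp2 exceeded erythroid-like cells in the same 10 of 12 classes, all but macrophage-like and endothelial-like cells. Rara exceeded them in all 12. Among the 13 classes, the class with the highest level was the same in WT and KO for 6 of the 9 genes, Tcf21-gated mesenchyme for Aldh1a2, Schwann precursor-like cells for Aldh1a3, coelomic epithelium-like cells for Aldh1a1, Wnt2-gated mesenchyme for Rarb, sclerotome-like cells for Rarg and endothelial-like cells for Cyp26b1. The intervals of the first and second class overlapped for Aldh1a1 and Rarg in WT and for Rarb in KO. For Aldh1a1 the order in KO rested on few cells, as given below. Each molecule gives 1 UMI whatever its length, so CPM values are set side by side between genes. Whether different genes are captured equally well was not tested, so shares between genes are shares of UMIs.

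**Figure D1:**
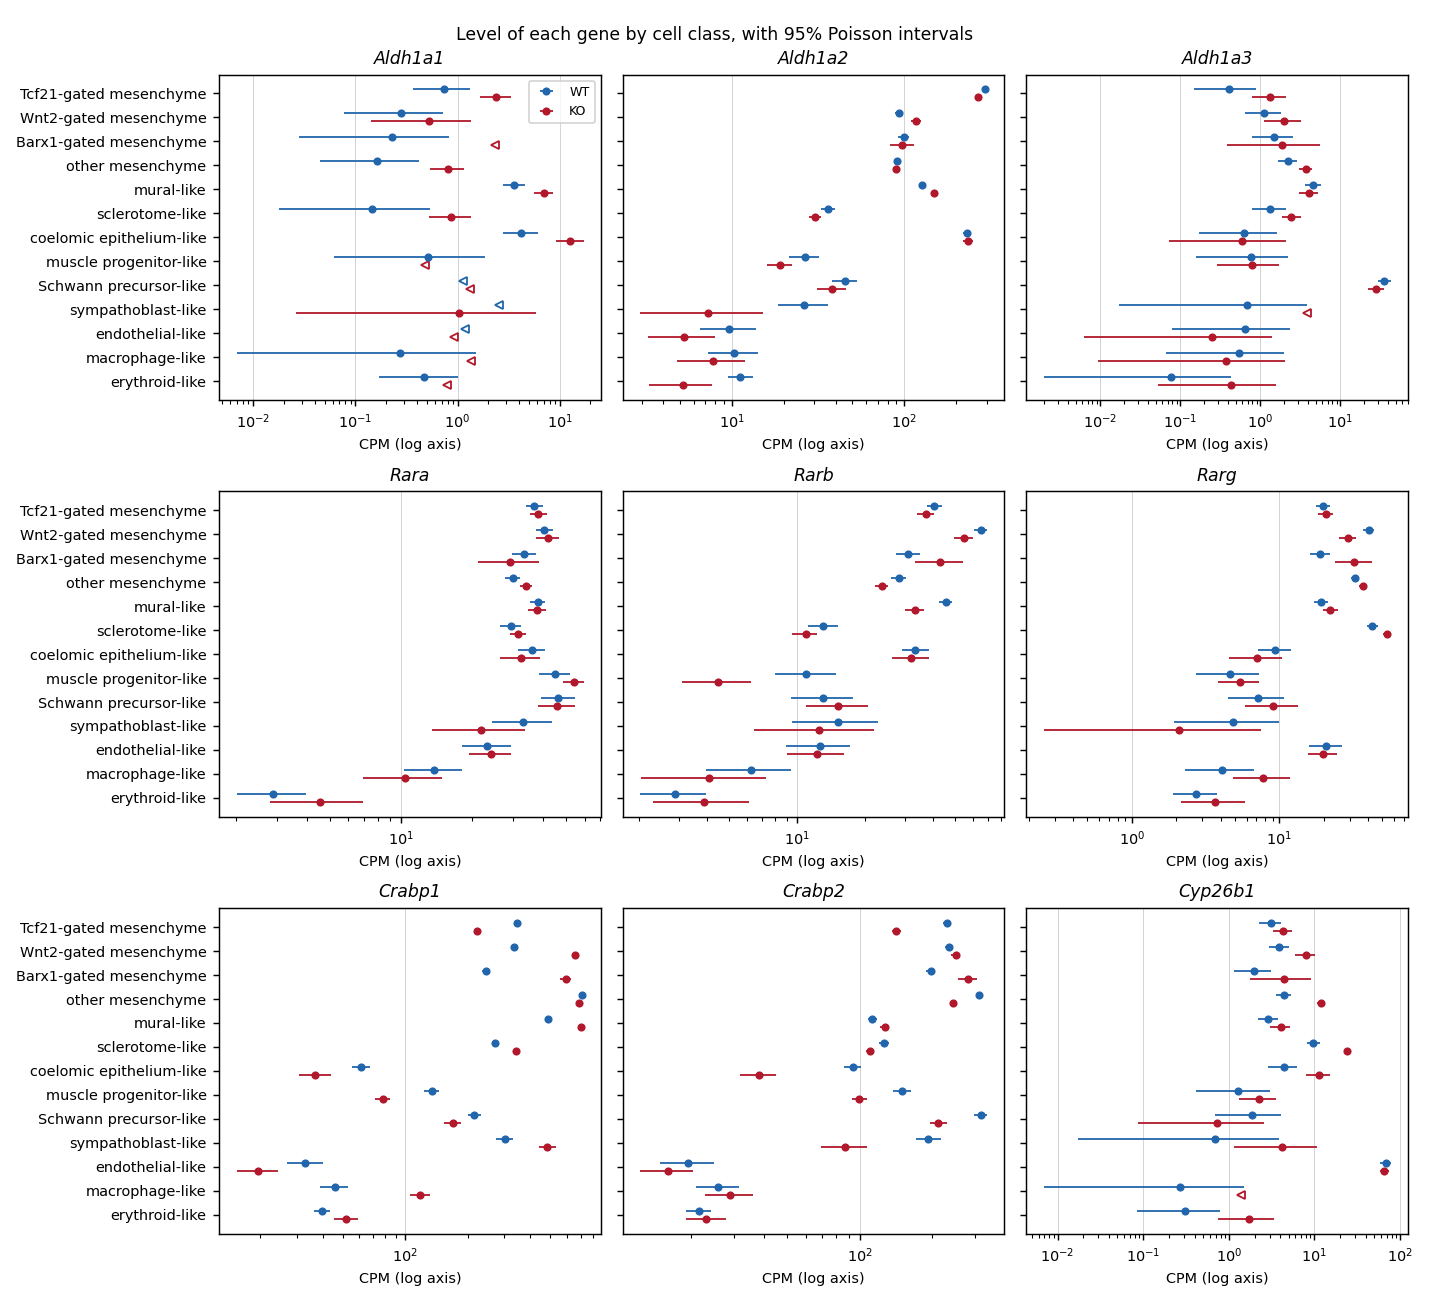
Level of each of the 9 genes in 13 cell classes, as CPM of summed UMIs on a log axis, with WT in blue, KO in red and 95% Poisson intervals as bars, and open triangles at the upper 95% limit where a class held no UMI. Aldh1a2 stands highest in Tcf21-gated mesenchyme (293 CPM in WT, 267 CPM in KO), Aldh1a3 in Schwann precursor-like cells (35.7 and 28.1 CPM) and Cyp26b1 in endothelial-like cells (68.1 and 65.7 CPM).

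Of the 3 synthesis genes, Aldh1a2 (chromosome 9, 71215789 to 71296243 of GRCm38, plus strand), which encodes the main retinaldehyde dehydrogenase of embryonic mesoderm, supplied most of the Aldh1a UMIs. It made up 96.2% of Aldh1a UMIs in WT and 94.2% in KO. Its level in Tcf21-gated mesenchyme was 293 CPM (284 to 302) in WT against 267 CPM (258 to 275) in KO. Coelomic epithelium-like cells were next, with 232 CPM in WT and 234 CPM in KO, followed by mural-like cells with 126 and 149 CPM. Tcf21 is a transcription factor gene of visceral mesenchyme, and coelomic epithelium lines the body cavity that such mesenchyme borders. The other mesenchymal groups had 90.4 to 99.0 CPM in WT, and 89.8 to 117 CPM in KO. Sclerotome-like cells, with 36.1 CPM in WT and 30.4 CPM in KO, and muscle progenitor-like cells, with 26.4 and 19.0 CPM, were lower. Endothelial-like cells, with 9.69 CPM (6.54 to 13.8) in WT against 5.25 CPM (3.25 to 8.02) in KO, overlapped erythroid-like cells, with 11.2 CPM (9.44 to 13.2) and 5.19 CPM (3.32 to 7.72).

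The share of cells with an Aldh1a2 UMI was also higher in Tcf21-gated mesenchyme than in erythroid-like cells. In Tcf21-gated mesenchyme it was 65.6% in WT and 66.5% in KO at medians of 13338.5 and 13186 UMIs, against 7.19% and 8.17% of erythroid-like cells at 16749 and 19936.5 UMIs. After every cell was thinned to 2000 UMIs, the shares were 32.9% in WT and 34.6% in KO, against 1.69% and 0.962% of erythroid-like cells. Pooled mesenchyme held 56.8% of all Aldh1a2 UMIs in WT and 60.6% in KO, and mural-like cells held 15.0% and 15.3%. The gene was therefore spread over much of the stroma rather than kept in 1 class.

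Between the libraries, Aldh1a2 in pooled mesenchyme differed little, at 141 CPM (138 to 144) in WT against 136 CPM (133 to 139) in KO, giving a log2 KO/WT of -0.05. In Tcf21-gated mesenchyme the log2 ratio was -0.13 (-0.2 to -0.07), in mural-like cells 0.24 (0.16 to 0.33) and in Wnt2-gated mesenchyme 0.33 (0.21 to 0.46), all short of 1.5-fold, the size used throughout to count a gene as differing (0.585 on the log2 scale, with at least 50 UMIs over both libraries). The ratio in mural-like cells lay between -0.26 and 0.47 under other ways of choosing and classing cells, and that in Wnt2-gated mesenchyme was 1.65 when cells were classed by whole profile. Over all cells the log2 ratio was -0.13, and -0.05 when the classes were given the same weights in WT and KO.

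Within mesenchyme, the cells richest in Aldh1a2 also carried more of other genes of the pathway. Mesenchymal cells were thinned to 2000 UMIs and sorted by their Aldh1a2 UMIs. Those with 3 or more numbered 96 of 3784 in WT (2.54%) and 107 of 3809 in KO (2.81%), and made up 5.31% of Tcf21-gated WT cells and 6.39% of KO cells. No erythroid-like cell reached 3, which allows a share of up to 0.519% in WT and 1.76% in KO. From cells with no Aldh1a2 UMI to those with 3 or more, Rdh10, which supplies the retinal that Aldh1a enzymes use, went from 30.7 to 129 CPM in WT and from 31.8 to 137 CPM in KO. Stra6, the cell surface receptor for retinol uptake, went from 32.3 to 76.2 CPM in WT and from 27.6 to 57.8 CPM in KO. Dhrs3, which reduces retinal back to retinol, went from 24.9 to 64.0 CPM in WT and from 21.5 to 46.2 CPM in KO. Genes of uptake, of retinal supply and of its return to retinol were thus higher in the same cells in both libraries.

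The members themselves divided along this series. Rarb was 1.75 times higher in Aldh1a2-rich cells in WT and 1.79 times in KO, Rara was level (1.01 and 1.02 times), and Rarg was lower (0.5 and 0.69 times). Crabp1 went in opposite directions, at 1.22 times in WT and 0.759 times in KO. Cyp26b1 was 4.11 CPM (3.58 to 4.7) and 2.04 CPM (0.421 to 5.97, on 3 UMIs) in WT, which overlap, and 10.6 CPM and no UMI in KO, where 2.51 CPM is the upper limit. Among genes known to respond to retinoic acid, Nr2f1 was 2.04 times higher in WT and 2.12 times in KO, Nr2f2 2.27 and 2.56 times, and Meis2 1.98 and 2.24 times. Hoxa5 was 1.29 and 0.779 times and Tgm2 0.3 and 1.02 times, with intervals that hold no difference, so the response genes did not all follow. Wt1, a transcription factor gene of coelomic epithelium and its mesenchyme, was 3.84 times higher in WT and 4.56 times in KO, and Gata2 8.91 and 8.85 times, so the series also runs from one kind of mesenchyme to another.

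**Figure D2:**
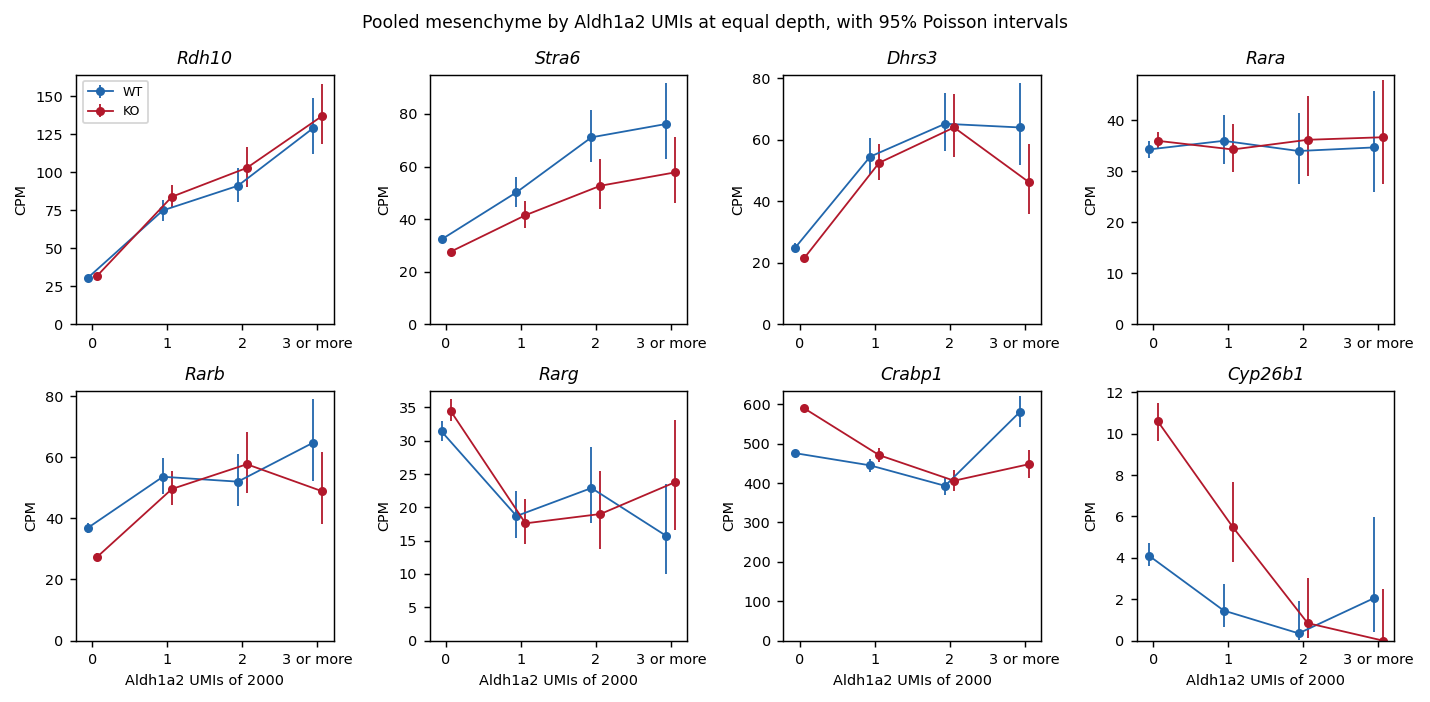
Levels of 8 genes (CPM, summed UMIs with 95% Poisson intervals) in pooled mesenchyme of WT and KO, with cells sorted by their number of Aldh1a2 UMIs among 2000 drawn UMIs (0, 1, 2, and 3 or more). Rdh10 goes from 30.7 to 129 CPM in WT and from 31.8 to 137 CPM in KO, while Rarg goes from 31.4 to 15.7 CPM and from 34.5 to 23.8 CPM.

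Across the classes of both libraries, the gene most like Aldh1a2 was Rdh10, with a Pearson r of log2(CPM + 1) of 0.951 over 28 points (14 classes in each library, the Epcam-gated cells included), followed by Nr2f1 (0.927) and Rarres2 (0.926). These points share 2 libraries and are not independent, so the values are a description. Rarb was the member most like Aldh1a2, with an r of 0.83.

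Aldh1a3 (chromosome 7, 66390890 to 66427517, minus strand) had its peak outside the mesoderm. Schwann precursor-like cells, glia derived from the neural crest, held 35.7 CPM (29.5 to 42.8) in WT against 28.1 CPM (22.2 to 35.1) in KO, and the next of the 13 classes, mural-like cells, held 4.59 and 4.03 CPM, 7.78 and 6.97 times less. The few Epcam-gated cells lay between them, with 7 UMIs in WT (7.62 CPM, 3.06 to 15.7) and 9 UMIs in KO (16.9 CPM, 7.74 to 32.1), and the KO interval overlapped that of Schwann precursor-like cells. A UMI was found in 66 of 135 Schwann precursor-like cells in WT and in 42 of 114 in KO, against 0.141% and 0.962% of erythroid-like cells. The median depths were 20993 and 18705.5 UMIs, against 16749 and 19936.5 UMIs. In these cells Aldh1a3 made up 44.1% of Aldh1a UMIs in WT and 42.6% in KO, while in Tcf21-gated mesenchyme Aldh1a2 made up 99.6% and 98.6%. The KO/WT log2 ratio in Schwann precursor-like cells was -0.34 (-0.78 to 0.08), an interval that holds 0. The genes most like it across classes were Gal3st1 (r = 0.827), Pde8b (0.825) and Tfap2a (0.802), the last a transcription factor gene of the neural crest.

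At lower levels, Aldh1a3 was higher in KO mesenchyme. Pooled mesenchyme held 89 UMIs (1.43 CPM) in WT and 169 UMIs (2.85 CPM) in KO, giving a log2 ratio of 0.99 (0.62 to 1.38), and erythroid-like cells 0.0777 and 0.432 CPM. The ratio was 0.74 in other mesenchyme (2.22 and 3.69 CPM) and 0.89 (0.1 to 1.75) in sclerotome-like cells (1.33 and 2.46 CPM). Neither held 1.5-fold throughout, with 0.39 by whole profile and 0.58 with stricter gates in other mesenchyme, and 0.55 with stricter gates and 0.33 as a mean of per-cell CPM in sclerotome-like cells. Over all cells, in which the Schwann precursor-like peak is included, it was 0.23.

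Aldh1a1 (chromosome 19, 20492715 to 20643465, plus strand), a broadly acting retinaldehyde dehydrogenase, was the rarest member, with 160 UMIs in all WT cells and 335 in all KO cells. Coelomic epithelium-like cells held 27 UMIs (4.21 CPM, 2.78 to 6.13) in WT and 43 UMIs (12.7 CPM, 9.19 to 17.1) in KO. Mural-like cells held 66 UMIs (3.6 CPM) in WT, 26 of them in 1 cell, and 95 UMIs (6.96 CPM) in KO, at most 12 in 1 cell. No UMI was found in endothelial-like or Schwann precursor-like cells, which allows up to 1.19 and 1.14 CPM in WT and 0.922 and 1.33 CPM in KO. The transcript was thus gathered in few cells. The genes most like it across classes were Myo1d (r = 0.808), Jade2 (0.798) and Dsg2 (0.797).

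Cells with 3 or more Aldh1a1 UMIs numbered 10 in WT and 31 in KO. They held 47.5% and 55.5% of its UMIs, shares that are raised by choosing cells on these UMIs. They were deep, with medians of 42085.5 UMIs in WT and 38624 in KO, and of several classes. In WT 5 were mural-like, 2 coelomic epithelium-like and 3 others. In KO 12 were mural-like, 5 coelomic epithelium-like and 3 other mesenchyme, while 4 passed more than 1 gate, 4 passed none, and the rest lay in other classes. Doublets were not removed, and their part was not tested. Genes of the early gonad, chosen after their values were seen, had UMIs in them in both libraries. Nr5a1, the steroidogenic factor gene of the gonadal and adrenal primordium, had 65.6 CPM in WT and 41.9 CPM in KO, and Amhr2, the receptor for anti-Müllerian hormone, had 139 and 64.2 CPM. Genes of the early testis differed between the libraries. Amh, which encodes anti-Müllerian hormone of Sertoli cells, had no UMI in these cells in WT (up to 7.33 CPM) and 76.8 CPM in KO. Sox9, needed for Sertoli cell fate, had 27.8 CPM (15.2 to 46.7) in WT against 212 CPM (188 to 237) in KO. Cyp26b1 had no UMI in the WT cells and 64.2 CPM (51.8 to 78.8) in the KO cells.

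By a separate gate, cells with UMIs of at least 2 of 6 genes (Amh, Cst9, Cst8, Ptgds, Defb19 and Aard, chosen after their values were seen) numbered 30 in WT and 47 in KO. Only 3 WT and 13 KO cells were both in this gate and among those with 3 or more Aldh1a1 UMIs, so the 2 groups are mostly different cells. The gate did not take like cells in both libraries. Amh had 1.81 CPM in these WT cells and 73.1 CPM in these KO cells, and Sox9 had 41.0 and 180 CPM, against 87.7 and 122 CPM in all other cells. Aldh1a1 had 29.6 CPM in these WT cells and 46.8 CPM in these KO cells, and Cyp26b1 had 7.24 CPM (3.74 to 12.6) and 52.1 CPM (43.5 to 61.9). The KO library is also the one with Y-linked transcripts, as given above, and the part of sex in these values was not tested. In coelomic epithelium-like cells, without the 13 cells of this gate that each library held there, Aldh1a1 was 2.3 CPM in WT and 2.68 CPM in KO. Its log2 ratio was then 0.22 instead of 1.59 (0.86 to 2.34). Mural-like cells without their cells of this gate had 2.2 CPM in WT and 7.11 CPM in KO, so in KO they then stood above coelomic epithelium-like cells. In mural-like cells the ratio was 0.95 (0.48 to 1.43) with the cells of this gate and 1.69 without them. Removal of 2 such cells took WT from 66 to 40 UMIs, while KO had 95 UMIs either way, so this change came from WT alone.

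Both retinoic acid binding proteins were abundant in mesenchyme and low in endothelial-like, macrophage-like and erythroid-like cells. Crabp1 (chromosome 9, 54764748 to 54773110, plus strand) was highest in other mesenchyme in WT, with 711 CPM (700 to 721), where KO had 685 CPM (676 to 693). In KO mural-like cells were as high, with 701 CPM (687 to 715), against 484 CPM (474 to 495) in WT. Erythroid-like cells had 39.7 CPM in WT and 51.9 CPM in KO, and endothelial-like cells were at or under this, with 32.9 and 19.5 CPM. KO macrophage-like cells had 118 CPM, but 183 of their 317 Crabp1 UMIs lay in 1 cell.

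Crabp2 (chromosome 3, 87948666 to 87953376, plus strand), which passes retinoic acid on to its receptors in the nucleus, was highest in WT Schwann precursor-like cells, with 318 CPM (299 to 338) in WT against 212 CPM (196 to 230) in KO, beside other mesenchyme with 312 CPM (305 to 319) and 245 CPM (240 to 250). Erythroid-like cells had 21.5 and 23.1 CPM, and endothelial-like cells 19.4 and 16 CPM. The balance of the pair depended on the class. Crabp1 supplied 81.1% of Crabp UMIs in mural-like cells of WT and 84.7% in KO, 60.1% and 60.8% in Tcf21-gated mesenchyme, and 40.4% and 44.3% in Schwann precursor-like cells. Over all cells it was 66.1% in WT and 73.6% in KO. The genes most like Crabp1 across classes were Egfr (r = 0.853), Foxd2 (0.85) and Foxd1 (0.847), and those most like Crabp2 were Nkain1 (0.931), Gdf11 (0.92) and Scd1 (0.913), while the pair itself had an r of 0.79.

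Between the libraries, the binding proteins moved differently in different classes. In Tcf21-gated mesenchyme, the class with most Aldh1a2, both were lower in KO, Crabp1 with 345 CPM in WT and 221 CPM in KO (log2 ratio -0.64, -0.71 to -0.58) and Crabp2 with 230 CPM in WT and 142 CPM in KO (log2 ratio -0.69). Both were also lower in KO in coelomic epithelium-like cells, where Crabp1 went from 61.3 to 36.9 CPM (-0.73) and Crabp2 from 93.6 to 38.1 CPM (-1.3, -1.58 to -1.02), and in muscle progenitor-like cells, where Crabp1 went from 134 to 77.9 CPM (-0.78) and Crabp2 from 150 to 99.8 CPM (-0.59). The Crabp1 ratio in Tcf21-gated mesenchyme lay between -0.57 and -0.37, short of 1.5-fold, in 5 of 13 alternatives, while that of Crabp2 passed it in all 13. The coelomic epithelium-like Crabp1 ratio was 0.10 without the deepest 5% of barcodes, and the Crabp2 ratio 0.36 at 2000 UMIs per cell. The KO level of Crabp1 in coelomic epithelium-like cells did not exceed that of erythroid-like cells, 51.9 CPM (45.5 to 58.9). In muscle progenitor-like cells classed by whole profile the Crabp1 ratio was -0.14, and the Crabp2 ratio there fell short of 1.5-fold in 6 of 13 alternatives, as far as -0.27. In Wnt2-gated mesenchyme Crabp1 was 334 CPM in WT and 658 CPM in KO, giving a log2 ratio of 0.98 (0.92 to 1.04), and Crabp2 was 234 and 251 CPM, a log2 ratio of 0.1. This class had different leading genes in the 2 libraries, and cells put there by their whole profile gave a Crabp1 log2 ratio of -0.39, so the direction there rests on how the cells were classed. In sympathoblast-like cells Crabp1 was higher in KO (301 and 483 CPM, 0.68) and Crabp2 lower (193 and 86.7 CPM, -1.16). These were 65 WT and 72 KO cells with median depths of 14698 and 6881.5 UMIs, and at 2000 UMIs per cell the Crabp1 ratio was -0.63. Endothelial-like Crabp1 (-0.76) did not exceed the erythroid-like level in either library.

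The 3 receptors differed in where they were expressed. Their summed level over all cells was 84.1 CPM in WT and 85.3 CPM in KO. Rara (chromosome 11, 98927818 to 98974942, plus strand) was present in nearly all classes, between 23.2 CPM in endothelial-like and 46.5 CPM in Schwann precursor-like cells of WT outside blood-type cells, and 13.9 CPM in macrophage-like cells. In KO it was highest in muscle progenitor-like cells, with 53.9 CPM (48.8 to 59.4) against 44.8 CPM (38.4 to 51.9) in WT. Of 12 neighbouring pairs in the order of its levels, the intervals overlapped in 11 in WT and in 12 in KO, so neighbouring classes mostly could not be told apart, although the ends could. WT endothelial-like cells (18.2 to 29.3 CPM) lay below Schwann precursor-like cells (39.4 to 54.6 CPM), and KO sclerotome-like cells (29.0 to 33.8 CPM) below muscle progenitor-like cells. Erythroid-like cells had 2.88 and 4.54 CPM.

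Rarb (chromosome 14, 16430839 to 16819156, minus strand), itself a known target of retinoic acid, was highest in Wnt2-gated mesenchyme, with 64.9 CPM (60.8 to 69.3) in WT against 54.7 CPM (49.6 to 60.3) in KO. Mural-like cells had 45.5 CPM (42.4 to 48.7) in WT against 33.1 CPM (30.1 to 36.3) in KO, Tcf21-gated mesenchyme 40.5 and 37.0 CPM, and coelomic epithelium-like cells 33.4 and 31.9 CPM. Sclerotome-like cells were lower, with 13.0 and 10.9 CPM. Muscle progenitor-like cells held 43 Rarb UMIs (11 CPM) in WT and 34 (4.46 CPM) in KO, close to erythroid-like cells (2.88 and 3.89 CPM) in the latter.

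Rarg (chromosome 15, 102234938 to 102257517, minus strand), a receptor known for its part in cartilage, had its highest values in sclerotome-like cells, the precursors of vertebrae and ribs, with 42.8 CPM (39.4 to 46.4) in WT against 53.8 CPM (50.7 to 56.9) in KO. In WT this overlapped Wnt2-gated mesenchyme, with 40.3 CPM (37.1 to 43.7). Rarg was near background in muscle progenitor-like cells, with 4.61 CPM in WT and 5.38 CPM in KO against 2.72 and 3.68 CPM in erythroid-like cells. Classes therefore differed in the make-up of their receptors. Rarg supplied 50.3% of receptor UMIs in sclerotome-like cells of WT and 56.0% in KO, Rarb 44.5% and 43.5% in Wnt2-gated mesenchyme, and Rara 74.2% and 84.6% in muscle progenitor-like and 69.8% and 65.5% in Schwann precursor-like cells.

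**Figure D3:**
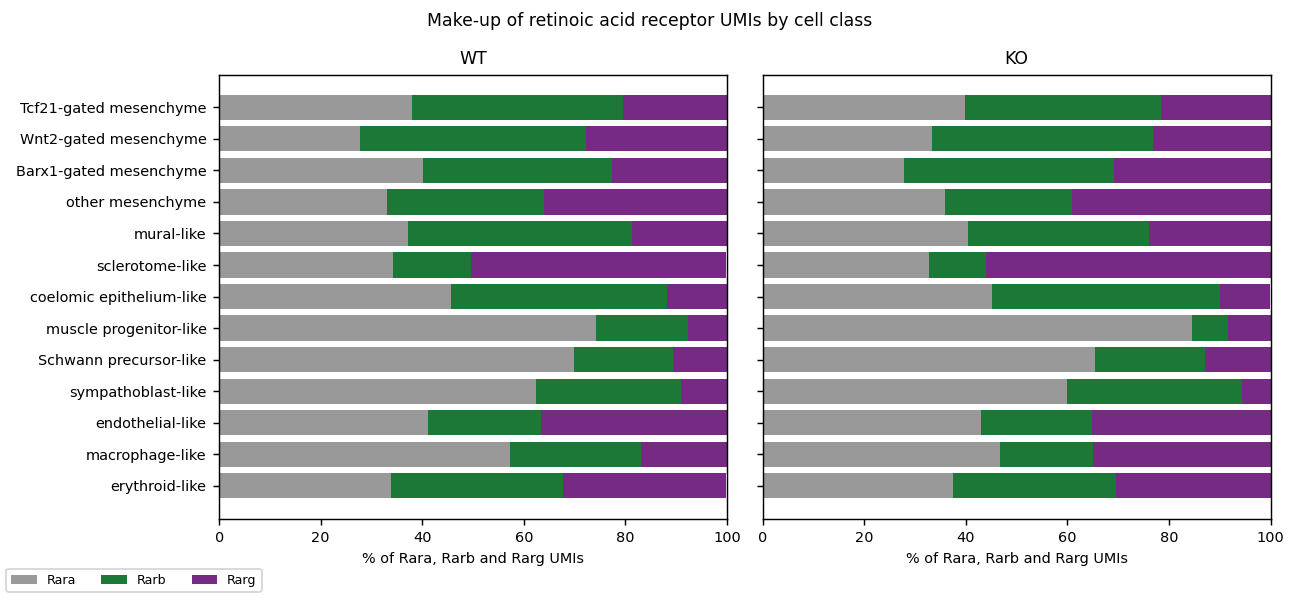
Share (%) of Rara, Rarb and Rarg among the summed UMIs of the 3 receptors in each class, stacked to the full sum, with WT and KO side by side. Rarg fills 50.3% (WT) and 56.0% (KO) in sclerotome-like cells, and Rara 74.2% and 84.6% in muscle progenitor-like cells.

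The genes most like the receptors across classes were Mnat1 (r = 0.963), Igf1r (0.96) and Skp2 (0.954) for Rara, Meis2 (0.905), Lhfp (0.889) and Efnb3 (0.884) for Rarb, and Angpt1 (0.885), Foxc1 (0.878) and Oaf (0.877) for Rarg. Meis2 is among the known response genes, and Foxc1 is a transcription factor gene of somite and vascular mesenchyme.

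No receptor passed 1.5-fold between the libraries over all cells or in pooled mesenchyme. The largest receptor ratio there was that of Rarb, with 39.9 CPM in WT and 31.4 CPM in KO in pooled mesenchyme, a log2 ratio of -0.35 (-0.43 to -0.26), and with 29.9 and 22.2 CPM over all cells (-0.43). Rarb was lower in KO in mural-like cells (-0.46, -0.63 to -0.29), and below 0 also in Wnt2-gated (-0.25) and other mesenchyme (-0.25), each short of 1.5-fold. In Tcf21-gated mesenchyme (-0.13, -0.3 to 0.04) and sclerotome-like cells (-0.27, -0.55 to 0.02) the intervals held 0. They also held 0 in coelomic epithelium-like (-0.07), endothelial-like (-0.04) and Schwann precursor-like cells (0.22). Classed by whole profile, Wnt2-gated mesenchyme gave 0.49 and other mesenchyme 0.16, and sclerotome-like cells gave 0.42 at 2000 UMIs per cell, while the ratio in pooled mesenchyme lay between -0.49 and -0.28 in all alternatives. Among the classes compared Rarb passed 1.5-fold in muscle progenitor-like cells, at -1.3 (-2.0 to -0.62), where its KO level did not exceed that of erythroid-like cells. Rara passed 1.5-fold in sympathoblast-like cells, with 33.0 CPM in WT and 21.9 CPM in KO (-0.59), a ratio that turned to 0.27 at 2000 UMIs per cell. Rarg was higher in KO over all cells (22.0 and 28.5 CPM, 0.38) and in sclerotome-like cells (0.33, 0.18 to 0.47), and lower in Wnt2-gated mesenchyme (40.3 and 29.1 CPM, -0.47, but 0.17 at 2000 UMIs per cell). With the classes given the same weights, the all-cell ratios were -0.28 for Rarb and 0.2 for Rarg. Rarb thus supplied 35.6% of receptor UMIs over all WT cells and 26.1% over all KO cells, and Rarg 26.1% and 33.5%.

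Sequence before the start of the genes was read for the elements that receptor dimers bind, 2 copies of NGNTCA, with A or G at the first N and G or T at the second, in the same direction with 1, 2 or 5 bases between them, on both strands. RefSeq promoters (GRCm38.p6, 250 bases before to 50 after each start) were at hand for 7 of the 9 members and 25 of 38 other genes of the pathway. The spacing of 5 bases occurred in 32 of 32851 promoters (0.0974%), and of these genes in Rarb and in Cyp26a1, a retinoic acid degrading enzyme. The 2 copies are in capitals. They lie 53 to 37 bases before a start of Rarb, inside an exon annotated as its untranslated region from another start, and 32 to 16 bases before the start of Cyp26a1, where they read on the opposite strand. These distances are from the RefSeq starts, and the last base shown for Cyp26a1 is the first base of the gene and its exon in the other annotation used here. Both stretches are given 5′ to 3′ on the strand of the gene.
Rarb, chr14:16575507-16575535, minus strand: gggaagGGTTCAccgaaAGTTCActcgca
Cyp26a1, chr19:37697770-37697798, plus strand: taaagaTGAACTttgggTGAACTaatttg
The spacing of 1 base occurred in 73 promoters (0.222%), among them that of the pathway gene Bco1, and that of 2 bases in 88 (0.268%). Neither spacing was found in the 7 members with a promoter at hand. These are matches of letters and say nothing about binding in these cells.

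Cyp26b1 (chromosome 6, 84571414 to 84593908, minus strand), which clears retinoic acid, was highest in endothelial-like cells, at 68.1 CPM (59.2 to 78.0) in WT against 65.7 CPM (58.0 to 74.2) in KO. A UMI was found in 36 of 86 endothelial-like cells in WT (41.9%) and in 25 of 80 in KO (31.2%), at median depths of 28069 and 41880.5 UMIs, against 0.564% and 1.92% of erythroid-like cells. The KO/WT log2 ratio was -0.05 (-0.32 to 0.22), and between -0.66, without the deepest 5% of barcodes, and 1.08, with under 5% mitochondrial UMIs. Few cells carried much of it, since 5 cells held 43.6% of the endothelial-like Cyp26b1 UMIs in WT and 70.0% in KO. Endothelial-like cells thus paired the highest level of the clearing enzyme with the background level of Aldh1a2, and with 23.2 CPM Rara, 12.6 CPM Rarb and 20.7 CPM Rarg in WT. The genes most like Cyp26b1 across classes were Gm30648 (r = 0.885), Clec14a (0.866), a gene of endothelium, and Cd109 (0.845).

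In sclerotome-like cells and in much of the mesenchyme, Cyp26b1 was higher in KO. Sclerotome-like cells held 132 UMIs (9.73 CPM, 8.14 to 11.5) in WT and 534 UMIs (24.3 CPM, 22.3 to 26.5) in KO, giving a log2 ratio of 1.32 (1.05 to 1.61). The share of these cells with a UMI was 12% in WT and 21.9% in KO, and 1.83% and 4.78% at 2000 UMIs per cell. Other mesenchyme had 4.4 CPM (3.6 to 5.31) in WT against 12 CPM (10.8 to 13.1) in KO, giving a log2 ratio of 1.44 (1.13 to 1.76). Wnt2-gated mesenchyme had 3.87 and 7.88 CPM (1.03, but -1.24 with cells classed by whole profile), while Tcf21-gated mesenchyme, with 3.09 and 4.27 CPM (0.47, -0.11 to 1.05), and mural-like cells, with 2.89 and 4.03 CPM (0.48, -0.09 to 1.05), had intervals that hold 0. In pooled mesenchyme the log2 ratio was 1.37 (1.15 to 1.6). The erythroid-like background was 0.311 CPM in WT and 1.73 CPM in KO. Over all cells Cyp26b1 had 5.44 CPM in WT and 12.1 CPM in KO, and the part of its UMIs in sclerotome-like cells was 16.2% in WT and 30.9% in KO, with 25.8% and 15.2% in endothelial-like cells. With the classes given the same weights, the log2 ratio over all cells was 0.86 instead of 1.16.

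The higher level in KO was seen in cells with no cartilage UMI among 2000 drawn UMIs and in those with 6 or more. Cells with none among 2000 can still hold such UMIs at full depth, so they are not cells without cartilage transcripts. The sclerotome gives rise to cartilage, and 8 cartilage genes (Col2a1, Sox9, Acan, Sox5, Sox6, Wwp2, Matn4 and Col9a3, chosen after seeing which genes led the class) were counted in cells thinned to 2000 UMIs. In sclerotome-like cells with no UMI of these genes Cyp26b1 was 5.72 CPM in WT and 18.9 CPM in KO (1.72), and in those with 6 or more UMIs it was 26.2 CPM in WT and 41.3 CPM in KO (0.66). In pooled mesenchyme it was 2.94 and 6.09 CPM (1.05) with none, and 20.5 and 43.2 CPM (1.08) with 6 or more. In pooled mesenchyme with 3 to 5 such UMIs the log2 ratio was 0.63 (-0.07 to 1.36). The group with 6 or more made up 2.33% of WT and 5.91% of KO pooled mesenchyme, and 25.0% and 27.5% of sclerotome-like cells. Cyp26b1 was thus highest in cells with 6 or more UMIs of these genes in both libraries, and KO pooled mesenchyme held more such cells. In sclerotome-like cells it did not rise evenly. With 1 to 2 and 3 to 5 such UMIs it was 4.38 and 6.69 CPM in WT, and 13.0 and 22.0 CPM in KO. Deeper cells have more chance to show a Cyp26b1 UMI. Sclerotome-like cells with one had medians of 16997 UMIs in WT and 16682 in KO, and those without 12692 and 11572.

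**Figure D4:**
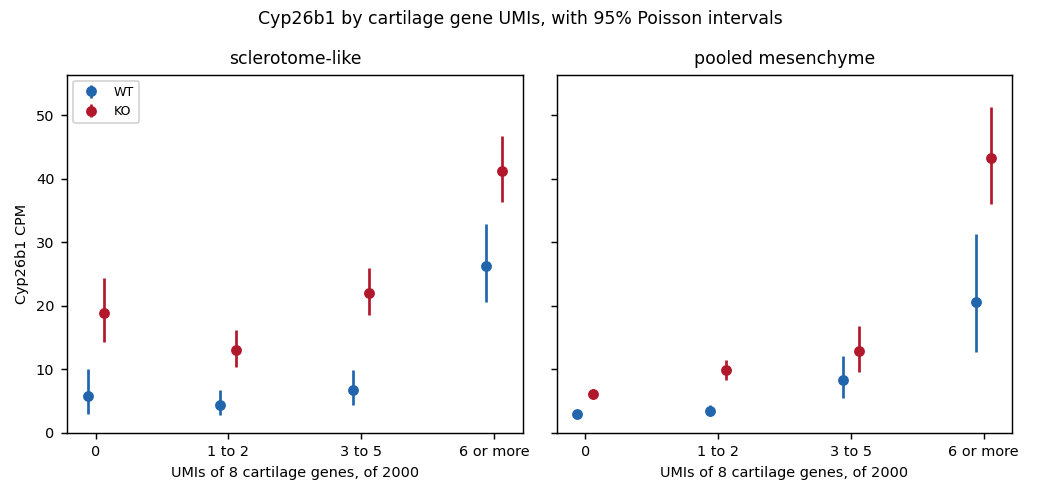
Level of Cyp26b1 (CPM, summed UMIs with 95% Poisson intervals) in sclerotome-like cells and in pooled mesenchyme of WT and KO, with cells sorted by the UMIs of 8 cartilage genes among 2000 drawn UMIs (0, 1 to 2, 3 to 5, and 6 or more). In sclerotome-like cells with none, WT stands at 5.72 CPM and KO at 18.9 CPM, and with 6 or more at 26.2 and 41.3 CPM.

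In coelomic epithelium-like cells Cyp26b1 held 28 UMIs (4.37 CPM) in WT and 38 UMIs (11.2 CPM) in KO, giving a log2 ratio of 1.36. Without the 13 cells in each library with at least 2 of Amh, Cst9, Cst8, Ptgds, Defb19 and Aard it was 3.9 CPM in WT and 1.15 CPM in KO, giving a log2 ratio of -1.76 (-4.14 to -0.03), so here the direction rests on those cells. In sclerotome-like cells the ratio was 1.29 without such cells, and in pooled mesenchyme 1.37.

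Counted over the members, 3 of 9 passed 1.5-fold in pooled mesenchyme, Aldh1a1 (1.74, on 21 WT and 67 KO UMIs), Aldh1a3 (0.99) and Cyp26b1 (1.37), all higher in KO, where 10.4% of all genes with 50 UMIs passed it. Over all cells 2 of 9 passed, Aldh1a1 (1.07 CPM in WT and 2.36 CPM in KO, 1.14, 0.87 to 1.43) and Cyp26b1 (1.16), beside 12.9% of all genes. With under 5% mitochondrial UMIs the Aldh1a1 ratio was 0.39 in pooled mesenchyme and 0.36 over all cells. The median log2 ratio of the members was 0.12 in pooled mesenchyme and 0.23 over all cells, and that of all genes 0.026 and 0.062. By class, 2 of 8 measured members passed in sclerotome-like cells (9.12% of all genes), 1 of 9 in mural-like (9.17%), 4 of 8 in coelomic epithelium-like (9.39%), 3 of 6 in muscle progenitor-like (10.1%), 3 of 3 in sympathoblast-like (15.5%), 2 of 7 in endothelial-like (8.46%) and none of 6 in Schwann precursor-like cells (9.13%). In mesenchyme, 2 of 7 passed in Wnt2-gated (16.5%), 2 of 7 in Tcf21-gated (7.05%) and 2 of 8 in other mesenchyme (8.35%). The 2 endothelial-like ratios, Aldh1a2 (-0.88) and Crabp1 (-0.76), come from levels that did not exceed those of erythroid-like cells, and were not read as expression. In coelomic epithelium-like cells the KO level of Crabp1 did not exceed that of erythroid-like cells either, nor did the KO level of Rarb in muscle progenitor-like cells.

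**Figure D5:**
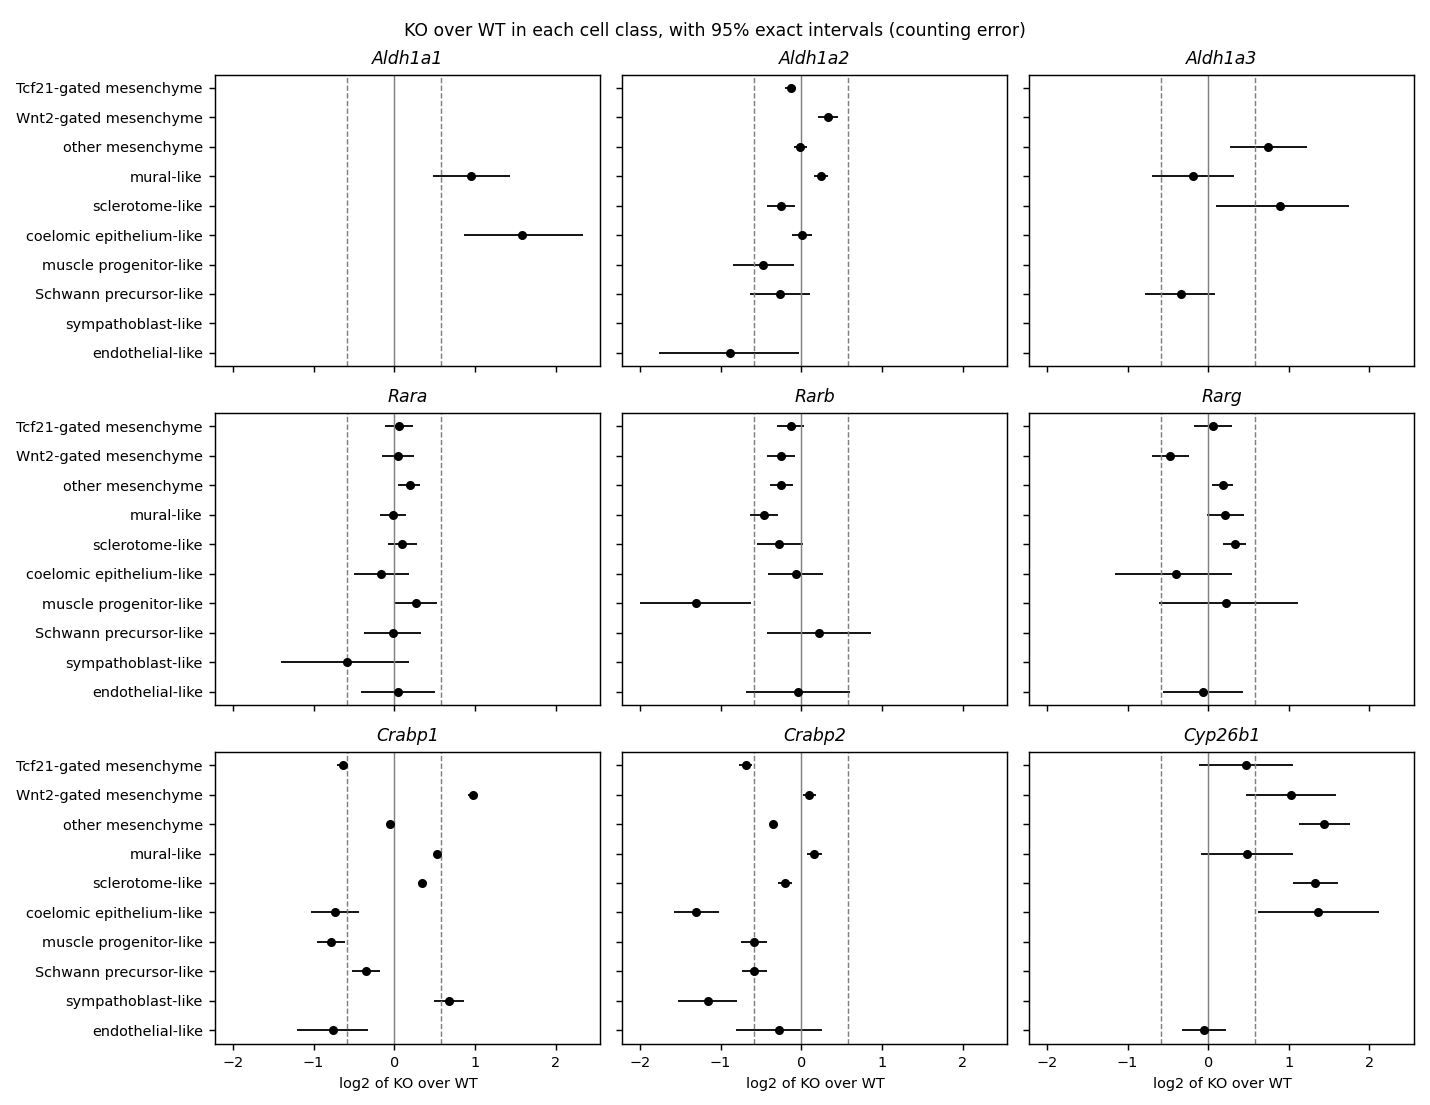
Log2 KO/WT of each member in the 10 classes compared, with 95% intervals of counting error, for pairs with at least 50 UMIs over both libraries, and dashed lines at 1.5-fold in either direction. Cyp26b1 lies above the upper line in sclerotome-like cells (1.32) and other mesenchyme (1.44), and Crabp1 lies above it in Wnt2-gated mesenchyme (0.98) and below the lower line in Tcf21-gated mesenchyme (-0.64).

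The other genes of the pathway are described by their counts. Of 38 genes in 4 lists, 33 had 50 UMIs over all cells, and 2 were higher and 1 lower in KO by 1.5-fold, with a median log2 ratio of 0.04, where 12.9% of all genes passed. In pooled mesenchyme 32 were measured, 1 was higher and 1 lower, with a median of 0.01, where 10.4% of all genes passed. Both counts are near these shares. None of the measured genes of retinol uptake and retinal metabolism (8 of 10 over all cells) passed it. Among these, Rdh10 had 29.0 CPM in WT and 29.9 CPM in KO, Stra6 26.5 and 22.8 CPM and Dhrs3 27.3 and 24.1 CPM. In Tcf21-gated mesenchyme, where Aldh1a2 was highest, Rdh10 had 60.5 and 60.6 CPM, Stra6 51.3 and 37.8 CPM and Dhrs3 47.2 and 37.1 CPM.

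Of 11 receptor partners and cofactors, Rxrg, a retinoid X receptor that pairs with the retinoic acid receptors, was 4.14 CPM in WT and 7.79 CPM in KO over all cells (0.91), and Ncoa1, a coactivator, 10.0 and 15.8 CPM (0.66). Both were highest in muscle progenitor-like cells, Rxrg with 69.1 CPM in WT and 64.3 CPM in KO and Ncoa1 with 35.3 and 52.2 CPM, and these cells numbered 160 in WT and 386 in KO. In pooled mesenchyme Rxrg was 1.87 and 3.26 CPM (0.8). Of 15 known response genes, 13 were measured, and Hoxb1, a hindbrain and trunk Hox gene that responds directly to retinoic acid, was lower in KO, with 130 UMIs (0.866 CPM) in WT and 37 UMIs (0.26 CPM) in KO over all cells (-1.73), and 0.804 and 0.253 CPM in pooled mesenchyme (-1.67). Its highest class in WT was the Barx1-gated mesenchyme, with 4.49 CPM, a class with other leading genes in KO. The median of the response genes was -0.02 over all cells and -0.01 in pooled mesenchyme. Of the clearing enzymes beside Cyp26b1, Cyp26a1 had 1.39 CPM in WT and 1.75 CPM in KO over all cells, and Cyp26c1 had no UMI in either library.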

How the data were processed

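Single-cell suspensions of whole AGM were made with collagenase type I, and the authors processed the 10x reads with Cell Ranger 3.1.0 on mm10 (GRCm38). The deposited tables hold UMI counts for all genes and barcodes, unnormalized and without calling of cells, with totals of 179743201 UMIs in WT and 174597654 in KO. Barcodes with at least 2000 UMIs and under 10% mitochondrial UMIs were kept. Doublets were not removed, and cells passing more than 1 marker gate (294 WT, 335 KO) or none (1232 and 1134) were left out of the classes. The number of markers needed was set after seeing the data. UMIs were summed per class and scaled to CPM, with exact Poisson, exact binomial (Clopper-Pearson) and conditional exact intervals at 95%, which cover counting error only. Free RNA was taken from barcodes with at most 100 UMIs. The intervals and counts past 1.5-fold were tested on simulated data over 14985 genes of the whole-library comparison, where 95.3% of the intervals held the true ratio. The simulated counts were Poisson draws, as the intervals assume, so this checks the calculation only. It does not cover UMIs gathered in few cells. The members and lists were chosen with earlier results of these data known. Named were all members, pathway genes past 1.5-fold, and the 3 genes most like each member in level across classes among those with at least 200 UMIs. Further genes were added with their values in view. Alternatives numbering 17 were planned, among them TMM factors of edgeR and the DESeq2 median of ratios as scaling, and 1 was added after seeing the data. Python 3.11.15, numpy 2.4.6, scipy 1.17.1, pandas 2.3.3, matplotlib 3.10.9, R 4.3.3 and edgeR 4.0.16 were used. The study's own removal of KO cells with a Pdgfrb UMI was run as an alternative. The results of some pathway genes are not reported here.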

Additional observations from a re-analysis of the deposited data

Results flagged for a closer look

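Crabp1 had KO/WT ratios past 1.5-fold in opposite directions in different classes. Its log2 KO/WT was 0.98 in Wnt2-gated mesenchyme and 0.68 in sympathoblast-like cells, and -0.64 in Tcf21-gated mesenchyme, -0.73 in coelomic epithelium-like cells, -0.76 in endothelial-like cells and -0.78 in muscle progenitor-like cells. Both positive ratios turned negative in an alternative, to -0.39 in Wnt2-gated mesenchyme with cells classed by whole profile, and to -0.63 at 2000 UMIs per cell and -0.16 with stricter gates in sympathoblast-like cells. The coelomic epithelium-like ratio was 0.10 without the deepest 5% of barcodes and the endothelial-like ratio 1.33 at 2000 UMIs per cell, and the latter comes from levels that did not exceed those of erythroid-like cells. In coelomic epithelium-like cells the KO level did not exceed that of erythroid-like cells either. With 1 library per genotype, the difference between the classes was not tested.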

How the results depend on the processing

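No paired analysis was possible because each genotype has 1 library, so no library could be left out either. Of 26 ratios past 1.5-fold, 8 stayed past it in the same direction in every alternative that gave a value (13, or 12 for Rarb in muscle progenitor-like cells), and 10 changed sign in at least 1; the cause was not tested unless named. Cyp26b1 kept its direction in pooled mesenchyme (1.03 to 1.43), sclerotome-like cells (0.89 to 1.56) and other mesenchyme (1.3 to 1.71), as did Aldh1a3 in pooled mesenchyme (0.84 to 1.41), Crabp2 in Tcf21-gated mesenchyme (-1.04 to -0.6) and Rarb in muscle progenitor-like cells (-2.41 to -0.69). The KO level of Rarb in muscle progenitor-like cells did not exceed that of erythroid-like cells.
With under 5% mitochondrial UMIs, which kept 3600 WT and 2915 KO cells, the class of highest level was the same in both libraries for 3 members (6 before), 1 member passed 1.5-fold over all cells (2 before) and 4 pathway genes passed in pooled mesenchyme (2 before), Aldh1a1 was 0.36 over all cells, and the ratio became 0.30 for Aldh1a2 in endothelial-like and 0.94 for Rara in sympathoblast-like cells. With cells classed by profile, 4 pathway genes passed, Aldh1a2 in pooled mesenchyme was 0.09, and in Wnt2-gated mesenchyme Crabp1 was -0.39 and Cyp26b1 -1.24. Thinned to 2000 UMIs, where fewer pairs keep 50 UMIs, 7 member and class pairs passed (21 before), 1 member in pooled mesenchyme (3 before) and 0 pathway genes, Aldh1a2 in pooled mesenchyme was 0.01, Rara 0.27 and Crabp1 -0.63 in sympathoblast-like cells, Crabp1 1.33 in endothelial-like and Crabp2 0.36 in coelomic epithelium-like cells. Stricter gates gave -0.26 for Aldh1a1 and -0.71 for Cyp26b1 in coelomic epithelium-like and -0.16 for Crabp1 in sympathoblast-like cells. The mean of per-cell CPM gave 0.33 for Rara in sympathoblast-like cells, and removal of the deepest 5% of barcodes gave 0.10 for Crabp1 in coelomic epithelium-like cells. Without cells holding at least 2 of Amh, Cst9, Cst8, Ptgds, Defb19 and Aard, an alternative added after seeing the data, Cyp26b1 in coelomic epithelium-like cells was -1.76. At 2-fold, 2 members passed in pooled mesenchyme. Low counts limit Aldh1a1 and Aldh1a3, which had 160 to 491 UMIs per library.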

Other observations

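Cyp26a1, the clearing enzyme whose start carries the paired element given above, was seen in few cells, a choice made after its values were seen. Mural-like cells held it in 10 WT cells (1.37 CPM) and 12 KO cells (8.28 CPM), with at most 8 UMIs in 1 WT cell and 34 in 1 KO cell. Coelomic epithelium-like cells held 27 UMIs (4.21 CPM) in WT and 1 UMI (0.295 CPM) in KO. Pooled mesenchyme held 84 UMIs (1.35 CPM) in WT and 68 UMIs (1.15 CPM) in KO.

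Endothelial-like cells with a Cyp26b1 UMI were compared with those without for 6 arterial genes (Gja4, Gja5, Sox17, Efnb2, Hey1 and Dll4) and 4 venous genes (Nr2f2, Nrp2, Aplnr and Ephb4), lists added after the data were seen. The arterial sum was 540 CPM with and 427 CPM without in WT, and 379 and 333 CPM in KO. The venous sum was 651 and 553 CPM in WT, and 611 and 704 CPM in KO. The intervals of the arterial sum overlapped in KO (351 to 409 and 310 to 358 CPM), and the venous sum went in opposite directions. Cells with a UMI were deeper, with medians of 49079 against 17628 UMIs in WT and 56266 against 28217 UMIs in KO.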
